A study of Drosophila melanogaster with 30 samples.

Results

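The data describe what changed in Drosophila melanogaster embryos at embryonic stage 16 (St16) when the transcription factor gene col was driven in neurons together with lbe, set against embryos in which lbe was driven alone. All genes with at least 1 TPM (a length-scaled unit of transcript abundance with a fixed sum per library) in either of the 2 genotypes were compared, which gave 9747 of the 14040 genes in the St16 table. The study sequenced RNA of whole embryos in 30 samples, 5 genotypes at St16 and at the later AFT (air-filled trachea) stage, with 3 biological replicates each. The deposited table holds 1 mean per gene and genotype, so no comparison below has a replicate check, a test, an SD or a p-value. Each difference is therefore a size alone, and a gene called higher or lower is so only in the deposited means.

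Embryos called col + lbe here were elav-Gal4 over a chromosome with UAS-col-HA and UAS-myc-lbe, and embryos called lbe were elav-Gal4 over UAS-myc-lbe. The col genotype had UAS-col-HA under the same driver, and ap + eya had UAS-Flag-ap and UAS-eya-HPC4. The control was elav-Gal4 (Bl#458) over a wild-type OregonR chromosome, so every genotype carried the driver. elav-Gal4 is pan-neuronal and acts mostly in postmitotic neurons, and each collection pooled more than 200 whole embryos. The RNA is thus a mixture in which neurons are 1 tissue among others, and fewer cells of a type cannot be told apart from less RNA per cell.

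col, listed in the table under its gene symbol kn, encodes the fly member of the EBF family of transcription factors. In the ventral nerve cord it acts in the Apterous neurons, a small cluster of cells born from a thoracic neuroblast lineage that also expresses lbe, a homeobox gene of the ladybird pair. There col acts upstream of ap, a LIM homeobox gene, and eya, a transcriptional cofactor, and these act with dimm, a bHLH gene of peptide-secreting cells, on the neuropeptide gene Nplp1.

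The levels of the driven genes followed the labels. kn stood at 81.0 TPM in col + lbe embryos, 92.4 TPM in col embryos, 26.0 TPM in ap + eya embryos and 18.2 TPM in lbe embryos, with 25.9 TPM in the control. It was thus high in both genotypes that carry UAS-col-HA and near or below the control in the others, with a difference of 2.09 on the log2(TPM + 1) scale between col + lbe and lbe. lbe stood at 68.2 TPM in col + lbe embryos and 61.2 TPM in lbe embryos, against 0.0633 TPM in the control, so the partner was near equal in the compared genotypes, 0.16 apart. The related gene lbl, next to lbe in the genome, had 7.14 TPM in col + lbe embryos and 7.98 TPM in lbe embryos. Reads of a transgene are not separable from those of the gene itself. The marker genes of neurons were also near equal: elav had 36.8 TPM in col + lbe embryos and 32.4 TPM in lbe embryos, and nSyb had 109 TPM in col + lbe embryos and 102 TPM in lbe embryos. The white gene w had 10.6 TPM in col + lbe embryos and 12.6 TPM in lbe embryos, against 20.3 TPM in the control.

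Most genes were alike in the compared genotypes. The median difference over the 9747 genes was 0.01, and 94.4% lay within 0.5 on the log2 scale. Of these genes 5254 were above 0 and 4493 were below. At 2-fold or more on the log2(TPM + 1) scale, 28 genes were higher in col + lbe embryos (0.287% of those compared) and 137 were lower (1.41%). At the edge of the threshold, CG18628 was counted at 1.02 and CG43348 was left out at 0.996, and on the other side CG5928 was counted at -1.002 and EbpIII was left out at -0.98. Regulators, peptide genes and secreted proteins were among the 28 higher genes, while 37 of the 137 lower genes belong to a list of cuticle protein genes and 81 are listed under a CG number. Calls at low levels depend on the pseudocount. With 5 in place of 1 there were 10 higher and 69 lower genes, and the 10 were Six4, IM14, ap, kn, Amy-p, Nplp1, CCHa2, slou, eya and CG3348. Of the lower genes named here, dsf, CCHa1, Sfp79B, Pdf, fon, Hsp70Bc, drd, gdl-ORF39, EAChm, Eip74EF, Cyp4p2, HLH3B, frm, Muc91C and CG5928 then missed the threshold.

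Several regulators of the Apterous cascade were among the higher genes. ap had 55.9 TPM in col + lbe embryos, 15.2 TPM in col embryos, 92.8 TPM in ap + eya embryos and 11.8 TPM in lbe embryos, against 10.5 TPM in the control. Apart from the genotype that carries its own transgene, ap was high only in col + lbe embryos, 2.15 above lbe embryos. eya (2L, 6527447 to 6546976 in BDGP6.54) had 36.6 TPM in col + lbe embryos, 13.3 TPM in col embryos, 88.8 TPM in ap + eya embryos and 12.4 TPM in lbe embryos, against 11.2 TPM in the control. It had the same order of genotypes as ap, with a difference of 1.49 between col + lbe and lbe. dimm (2L, 21331756 to 21342155) had 4.56 TPM in col + lbe embryos and between 1.51 and 1.99 TPM in the other 4 genotypes, a difference of 1.09 from lbe. Unlike ap and eya, dimm was low in ap + eya embryos.

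Of the 21 compared genes on a list of the Apterous cascade, which includes markers and temporal genes of the lineage and leaves out kn and lbe, 4 were at least 2-fold higher and none was lower, with a median of -0.02. The 4 are ap, eya, dimm and Nplp1. cas, a temporal gene of neuroblasts that acts before the Apterous neurons are born, had 11.1 TPM in col + lbe embryos and 19.2 TPM in lbe embryos, a difference of -0.74. FMRFa, the peptide gene of the sister Tv4 neurons, was below 1 TPM in both genotypes at St16 and was not compared.

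The other higher regulators were Six4, slou and Oaz. Six4 (3L, 20788886 to 20792777), a homeobox gene known for its roles in mesoderm and gonad, had the largest difference among the higher genes, 2.17. It stood at 17.9 TPM in col + lbe embryos, 3.80 TPM in col embryos, 4.19 TPM in ap + eya embryos and 3.19 TPM in lbe embryos, against 2.30 TPM in the control. Its level in col + lbe embryos was therefore more than 2-fold above each of the other 4 genotypes. slou (3R, 21548661 to 21557182), an NK homeobox gene that sets the identity of a subset of muscles and is also used in neurons, had 34.6 TPM in col + lbe embryos, 13.5 TPM in col embryos, 9.75 TPM in ap + eya embryos and 9.97 TPM in lbe embryos, against 10.2 TPM in the control. Here too only col + lbe stood apart, by 1.70 from lbe. Oaz, a zinc finger gene, had 6.61 TPM in col + lbe embryos, 5.50 TPM in col embryos, 2.48 TPM in ap + eya embryos and 2.22 TPM in lbe embryos, against 2.30 TPM in the control, and thus was high in both genotypes with UAS-col-HA.

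**Figure D1:**
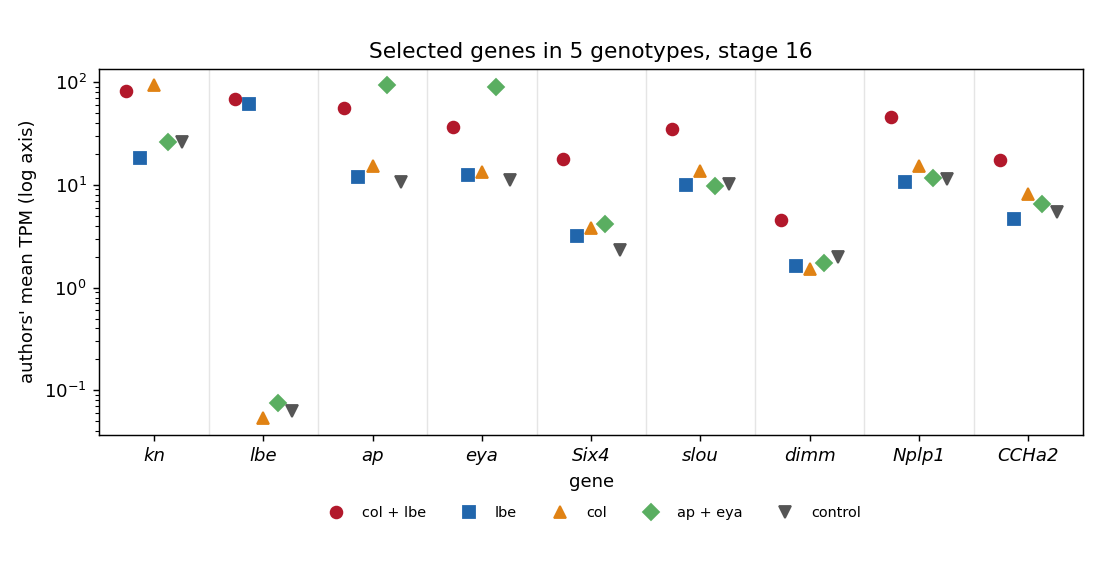
Authors' mean TPM on a log axis for 9 genes at stage 16, with 1 point per genotype and no error bar because the table holds 1 mean each. kn is high in col + lbe and col, ap and eya are high in col + lbe and ap + eya, and Six4, slou, dimm, Nplp1 and CCHa2 have their highest point in col + lbe.

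Among peptide genes, Nplp1, the precursor made by the Tv1 Apterous neurons, had 45.2 TPM in col + lbe embryos, 15.4 TPM in col embryos, 11.5 TPM in ap + eya embryos and 10.6 TPM in lbe embryos, against 11.4 TPM in the control. CCHa2 (3R, 13389059 to 13395197), a precursor known from gut, fat body and brain, had 17.6 TPM in col + lbe embryos, 8.12 TPM in col embryos, 6.45 TPM in ap + eya embryos and 4.60 TPM in lbe embryos, against 5.41 TPM in the control. Both had their highest level in col + lbe embryos, with differences of 1.99 for Nplp1 and 1.73 for CCHa2 from lbe. The ap + eya genotype, where ap and eya themselves were above their level in col + lbe, had Nplp1 at about the control level.

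The peptide precursors as a list did not move one way. Of the 28 compared, 2 were at least 2-fold higher and 2 were lower, and the median was -0.10. The lower genes were CCHa1, a relative of CCHa2, and Pdf, the peptide of clock neurons. CCHa1 had 2.89 TPM in col + lbe embryos, 3.54 TPM in col embryos, 2.87 TPM in ap + eya embryos and 8.83 TPM in lbe embryos, against 4.15 TPM in the control, so lbe embryos had the highest level, and the difference between col + lbe and lbe was -1.34. Pdf had 6.08 TPM in col + lbe embryos, 8.53 TPM in col embryos, 7.83 TPM in ap + eya embryos and 16.0 TPM in lbe embryos, against 18.4 TPM in the control, and was low in all 3 genotypes that drive col or ap and eya. AstC and Akh, 2 further peptide genes, were at -0.78 and -0.74.

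The genes that process and release peptides stood slightly above the median of all genes. Of 21 compared, 15 were above 0, the median was 0.14 and 1, dimm, was at least 2-fold higher. The next was Sytalpha, a synaptotagmin of dense core vesicles, with 3.78 TPM in col + lbe embryos and 1.75 TPM in lbe embryos, a difference of 0.80. Of the 35 receptors for peptides and amines none reached 2-fold, and TkR86C had the largest difference at 0.91.

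Other transcription factor genes were mostly a little lower. Of the 77 homeobox genes compared, 3 were at least 2-fold higher, ap, Six4 and slou, and none was lower, while 55 were below 0, with a median of -0.14. Rx, with 3.45 TPM in col + lbe embryos and 7.44 TPM in lbe embryos, and toy, with 6.71 TPM in col + lbe embryos and 13.4 TPM in lbe embryos, were the lowest of them at -0.92 and -0.90. hth, a cofactor gene of Hox proteins, went the other way, at 0.59. Of 36 bHLH genes dimm was higher, and Fer1 and HLH3B were lower. Fer1 had 5.85 TPM in col + lbe embryos, 8.71 TPM in col embryos, 8.46 TPM in ap + eya embryos and 18.4 TPM in lbe embryos, against 12.3 TPM in the control, a difference of -1.50. HLH3B had 2.57 TPM in col + lbe embryos and 6.73 TPM in lbe embryos, a difference of -1.12. Of 46 other neuronal transcription factor genes 37 were below 0, and only Eip74EF, an Ets gene induced by ecdysone, reached 2-fold, with 1.59 TPM in col + lbe embryos and 4.72 TPM in lbe embryos. fd59A, a forkhead gene, was just inside at -0.96.

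Genes of neuronal function shifted little. Of 23 pan-neuronal and synaptic genes 19 were above 0, against 5254 of all 9747 genes, with a median of 0.16. None of the 23 reached 2-fold, the largest being para, the voltage-gated sodium channel, at 0.79 and fne, an RNA-binding protein of neurons, at 0.59. Of 12 acetylcholine genes 10 were above 0 with a median of 0.14. Between ap + eya embryos and the control the medians were 0.22 for the pan-neuronal list and 0.21 for the acetylcholine list. Between col embryos and the control both were -0.08. The GABA genes split: Gad1, which makes GABA, had 3.25 TPM in col + lbe embryos and 5.77 TPM in lbe embryos, Gat, its transporter, had 7.62 TPM in col + lbe embryos and 12.4 TPM in lbe embryos, and Rdl, a receptor subunit, was higher by 0.58. In the control Gad1 had 11.4 TPM and Gat 26.2 TPM, above both compared genotypes. None of the 60 genes of axon guidance and adhesion, the 25 genes of glia or the 27 genes of muscle reached 2-fold, with medians of 0.01, -0.10 and -0.08. Of the 25 glial genes 21 were below 0, with alrm, an astrocyte gene, lowest at -0.87 and repo, the glial homeobox gene, at 17.9 TPM in col + lbe embryos and 22.2 TPM in lbe embryos.

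**Figure D2:**
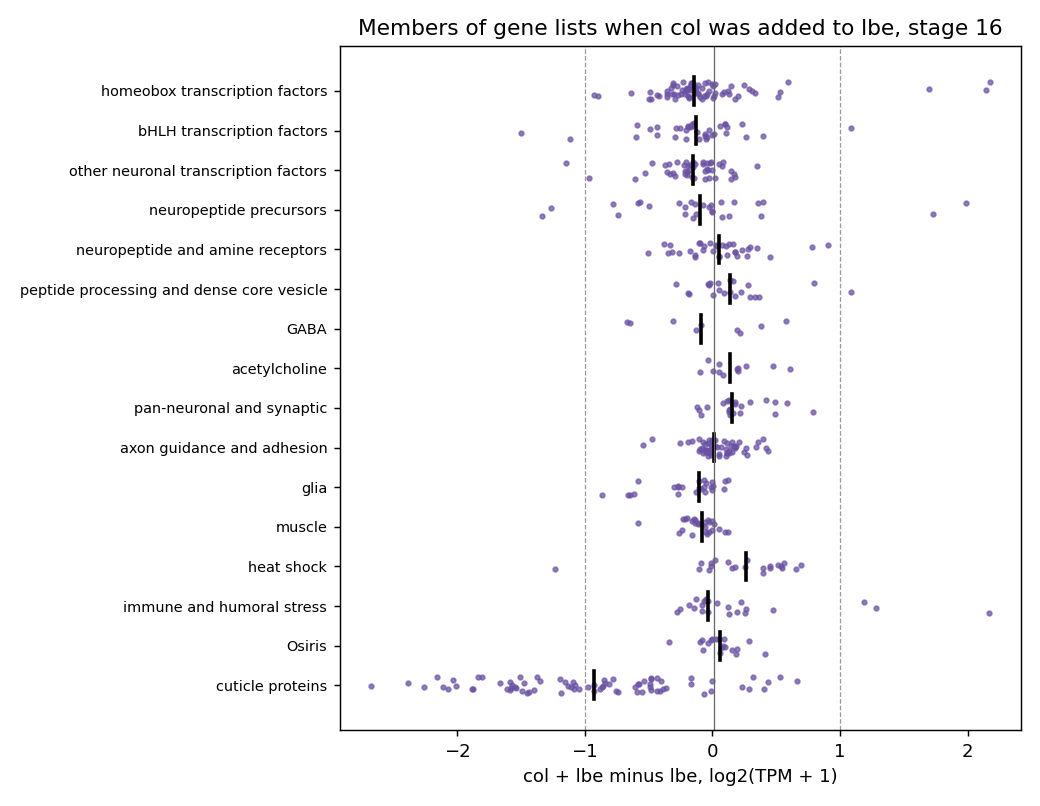
Difference between col + lbe and lbe on the log2(TPM + 1) scale at stage 16 for the compared members of 16 gene lists, 1 point per gene with the list median as a black bar, the 2-fold threshold as dashed lines and the median of all genes as a thin line. The cuticle protein list lies to the left, with a median of -0.92, and the other medians shown lie between -0.15 and 0.27.

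Some secreted proteins of the immune system and the gut were among the higher genes. Of 19 compared genes on the fat body and gut list, 2 were higher, none was lower and the median difference was -0.01. Of 23 immune genes compared 3 were at least 2-fold higher and none was lower, with a median of -0.03. IM14, an immune-induced peptide now named Dso2, had 26.5 TPM in col + lbe embryos, 15.9 TPM in col embryos, 2.53 TPM in ap + eya embryos and 5.11 TPM in lbe embryos, against 3.32 TPM in the control. LysX, a lysozyme with near relatives in the genome, had 8.61 TPM in col + lbe embryos, 8.91 TPM in col embryos, 8.53 TPM in ap + eya embryos and 2.95 TPM in lbe embryos, against 2.73 TPM in the control. IM14 was thus high in both genotypes with UAS-col-HA, while LysX was also high in ap + eya. IM23 and its neighbour CG15067, Bomanin genes now named BomBc1 and BomBc2, were at 2.55 TPM and 6.87 TPM in col + lbe embryos and at 0.555 TPM and 1.90 TPM in lbe embryos. Amy-p, an amylase of the gut, had 8.67 TPM in col + lbe embryos, 3.63 TPM in col embryos, 0.847 TPM in ap + eya embryos and 1.35 TPM in lbe embryos, against 0.903 TPM in the control. alphaTry, a trypsin, had 4.25 TPM in col + lbe embryos, 2.68 TPM in col embryos, 1.49 TPM in ap + eya embryos and 1.51 TPM in lbe embryos, against 3.07 TPM in the control. The fat body genes Fbp1 and Lsp2 were below 0.3 TPM in every genotype.

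The remaining higher genes have varied or unknown roles, and those outside the naming rule were named after their values were seen. Gr28b, a gustatory receptor gene, had 2.34 TPM in col + lbe embryos, 2.17 TPM in col embryos, 0.416 TPM in ap + eya embryos and 0.377 TPM in lbe embryos, against 0.419 TPM in the control. y, the yellow gene of pigmentation, had 4.80 TPM in col + lbe embryos, 5.07 TPM in col embryos, 1.85 TPM in ap + eya embryos and 1.77 TPM in lbe embryos, against 1.51 TPM in the control. Both were high in the 2 genotypes with UAS-col-HA and near the control in lbe embryos. Mst57Dc, a gene of the male accessory gland, had 5.34 TPM in col + lbe embryos, 4.71 TPM in col embryos and 1.70 TPM in lbe embryos, and was listed at 0 in ap + eya and in the control. Dup99B, a seminal peptide gene, had 1.16 TPM in col + lbe embryos and was listed at 0 in lbe embryos. CG3348 had 78.5 TPM in col + lbe embryos, 62.0 TPM in col embryos, 29.1 TPM in ap + eya embryos and 27.2 TPM in lbe embryos, against 22.3 TPM in the control. CG31219 had 6.96 TPM in col + lbe embryos, 0.205 TPM in col embryos, 7.06 TPM in ap + eya embryos and 2.18 TPM in lbe embryos, against 0.455 TPM in the control, so it was lowest in the col genotype. The other 7, CG30356, CG15465, CG40635, CG13056, CG15036, CG11670 and CG18628, had differences between 1.02 and 1.24.

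The col genotype and the control allow the addition of col to be read without lbe. They share no group with col + lbe and lbe. The control has a wild-type chromosome where lbe embryos have a UAS chromosome, so col against control also holds that change. Its part in the differences was not tested. In that comparison 9799 genes were compared, of which 0.286% were at least 2-fold higher and 0.337% lower. Above 0 in it were 22 of the 27 higher genes other than kn, against 23.1% of all genes compared between col + lbe and lbe. Of the 27 higher genes other than kn, 8 were also at least 2-fold higher in col embryos than in the control, namely IM14, Amy-p, CG3348, LysX, Gr28b, CG30356, y and Mst57Dc, the last of which is listed at 0 in the control. For 12 of the 27 the difference made by col was at least 2-fold larger with lbe than without, against 0.414% of the 9894 genes for which this could be computed. These 12 are Six4, ap, Nplp1, CCHa2, slou, eya, dimm, alphaTry, CG15067, CG31219, CG15465 and CG40635. The other 7 were in neither set. In either direction 149 genes (1.51%) passed this measure, which contains the col + lbe contrast, so the share of higher genes in it is a description.

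The higher genes of the Apterous cascade were within 2-fold when col was added without lbe. Between col embryos and the control ap differed by 0.49, eya by 0.24, Nplp1 by 0.40 and dimm by -0.25, and Six4 and slou differed by 0.54 and 0.37. Of these only dimm was negative, while the median of all compared genes was -0.08. The difference with lbe minus that without was 1.66 for ap, 1.25 for eya, 1.58 for Nplp1, 1.34 for dimm, 1.63 for Six4 and 1.33 for slou. kn itself differed by 2.09 with lbe and 1.80 without, so its own step was of similar size in both settings. In the ap + eya genotype 5 of the 28 were at least 2-fold above the control, against 0.427% of the genes compared there. These were the driven genes ap and eya, with LysX, CG31219 and CG40635. Against all 4 other genotypes, col + lbe stood at least 2-fold higher for 8 genes, Six4, Amy-p, Nplp1, CCHa2, slou, CG15067, CG30356 and CG13056, a comparison chosen after the data were seen.

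**Figure D3:**
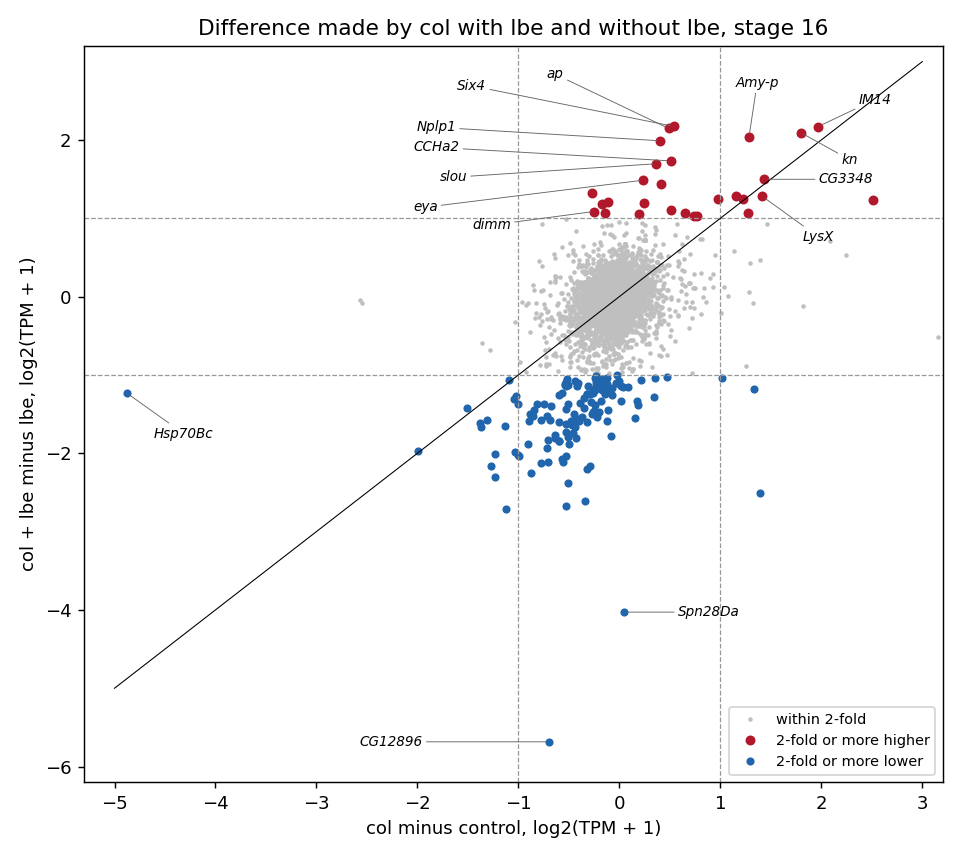
Difference between col + lbe and lbe (vertical) against that between col and control (horizontal), both on the log2(TPM + 1) scale at stage 16, with 1 point per gene, dashed lines at 2-fold and a diagonal where both are equal. Six4, ap, Nplp1, CCHa2, slou, eya and dimm lie above the diagonal and within 2-fold on the horizontal axis, while kn, IM14, CG3348 and LysX lie near the diagonal.

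Some genes stood out in the comparison with and without lbe although they were within 2-fold between col + lbe and lbe. GILT3 had 25.0 TPM in col + lbe embryos, 2.98 TPM in col embryos, 2.66 TPM in ap + eya embryos and 26.5 TPM in lbe embryos, against 22.3 TPM in the control. phr, a photolyase gene, had 1.45 TPM in col + lbe embryos, 8.03 TPM in col embryos, 10.7 TPM in ap + eya embryos and 1.65 TPM in lbe embryos, against 1.56 TPM in the control. For both, col and ap + eya were alike and apart from the other 3 genotypes. Sirup, a gene of mitochondrial complex assembly, was lower by the rule at -1.04, with 356 TPM in col + lbe embryos, 688 TPM in col embryos, 710 TPM in ap + eya embryos and 732 TPM in lbe embryos, against 340 TPM in the control. Its level in col + lbe embryos was thus close to the control, and the other 3 genotypes were high.

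Among the gene lists, cuticle proteins held the most lower genes. They build the chitin-based outer layer that the epidermis secretes. Of 78 cuticle protein genes compared, 37 were at least 2-fold lower in col + lbe embryos and none was higher, with a median of -0.92, and 71 were below 0. Their summed level was 3316 TPM in col + lbe embryos, 6505 TPM in col embryos, 4729 TPM in ap + eya embryos and 6028 TPM in lbe embryos, against 7704 TPM in the control. The median gene had 6.94 TPM in col + lbe embryos and 13.8 TPM in lbe embryos, with 7.42 TPM in ap + eya embryos. For 64 of the 78 genes col + lbe was the lowest of the 5 genotypes, and for 58 the control was the highest.

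Some of these genes are among the more abundant transcripts of the embryo. Cpr65Ea had 160 TPM in col + lbe embryos, 587 TPM in col embryos, 274 TPM in ap + eya embryos and 589 TPM in lbe embryos, against 828 TPM in the control. TwdlM, of the Tweedle family, had 39.8 TPM in col + lbe embryos, 195 TPM in col embryos, 70.7 TPM in ap + eya embryos and 175 TPM in lbe embryos, against 318 TPM in the control. In both the order was the same, with col + lbe lowest, ap + eya next, and lbe and col near each other below the control. obst-E, which encodes a chitin-binding protein that shapes the larval body and stands on the list of tracheal and epidermal matrix genes, had 9.92 TPM in col + lbe embryos, 38.1 TPM in col embryos, 18.2 TPM in ap + eya embryos and 32.0 TPM in lbe embryos, against 58.2 TPM in the control, with the same 2 genotypes lowest. Of the 29 genes of that list it was the only one to reach 2-fold. Cpr65Ax2 had the largest difference of the cuticle list at -2.67, with 2.60 TPM in col + lbe embryos and 22.0 TPM in lbe embryos, but shares reads with its near-identical copy Cpr65Ax1, which was at -2.38. Lcp65Af followed at -2.25, TwdlB at -2.16, Cpr62Bc at -2.07 and TwdlN at -2.03.

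The Tweedle genes all lay on the lower side, with 10 of 18 compared at least 2-fold lower, none above 0 and a median of -1.34. The Osiris genes, another epidermal family, did not share this, with none of 19 at 2-fold and a median of 0.06. Of the marker genes of epidermis and trachea, ple and serp were close to equal. ple, which makes the precursor of cuticle tanning, had 55.8 TPM in col + lbe embryos and 54.1 TPM in lbe embryos, and serp, a chitin deacetylase gene of the trachea, had 516 TPM in col + lbe embryos and 518 TPM in lbe embryos. Gasp, a chitin-binding protein gene of the trachea, had 698 TPM in col + lbe embryos and 959 TPM in lbe embryos.

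**Figure D4:**
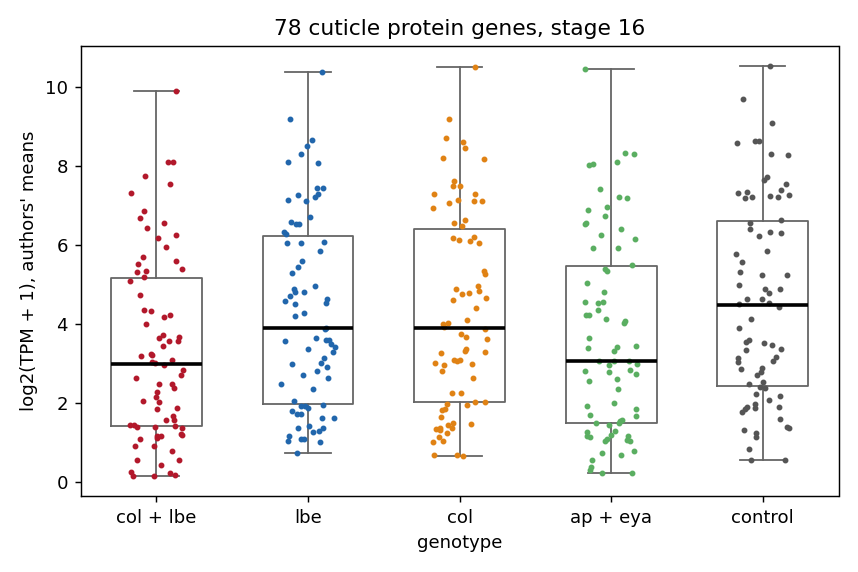
Levels of the 78 compared cuticle protein genes at stage 16 as log2(TPM + 1), 1 point per gene and genotype, with boxes for the quartiles and a black line for the median. The boxes of col + lbe and ap + eya, at medians of 6.94 and 7.42 TPM, lie below those of lbe, col and the control.

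Many lower genes lie in clusters on the chromosomes, in which 3L is prominent: 43.1% of the 137 lower genes lie on it, against 19.5% of all compared genes. The longest run of neighbours, with no gap between lower genes above 50000 bases, spans 16264713 to 16345241 on 3L (BDGP6.54) and holds 15 lower genes among 23 compared, with a median difference of -1.58 over those 15. It also holds CG13056, which is 1 of the 28 higher genes. The 15 are CG-numbered and none is on the cuticle list. That list was set by gene symbols, so absence from it does not tell what a gene encodes. Next came 9 of 13 compared genes at the Lcp65 and Cpr65 genes on 3L, 6130386 to 6164682, and 7 of 10 at the Tweedle genes on 3R, 26619118 to 26693590. At 3L, 22691674 to 22697970, all 5 compared genes were lower, among them CG12546 and CG14452, which are near-identical and share reads.

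Among the CG-numbered genes, CG12896 had the largest difference of all genes. It stood at 0.0227 TPM in col + lbe embryos, 19.6 TPM in col embryos, 101 TPM in ap + eya embryos and 51.6 TPM in lbe embryos, against 32.4 TPM in the control, a difference of -5.68. Of the 5 genotypes col + lbe alone had it near 0. CG15213 had 6.54 TPM in col + lbe embryos and 48.5 TPM in lbe embryos, and CG13067 had 0.320 TPM in col + lbe embryos and 7.04 TPM in lbe embryos. Spn28Da, a serpin gene, had 0.0720 TPM in col + lbe embryos and 16.5 TPM in lbe embryos, with at most 0.10 TPM in the other 3 genotypes, so lbe embryos alone had it high and the difference was -4.03.

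The 19 lower genes outside the cuticle list and with a name rather than a CG number include Fer1, HLH3B, Eip74EF, CCHa1, Pdf, Sirup, obst-E and Spn28Da, described above. Hsp70Bc was listed at 0.255 TPM in col + lbe embryos and 1.94 TPM in lbe embryos, but it is 1 of 6 near-identical copies, which summed to 669 TPM in col + lbe embryos and 490 TPM in lbe embryos. Of 22 heat shock genes 16 were above 0 with a median of 0.27, and Hsp22 and Hsp23 were at 0.69 and 0.65. Cyp4p2, a cytochrome P450 gene, had 5.65 TPM in col + lbe embryos and 13.6 TPM in lbe embryos, with 19.4 TPM in ap + eya embryos and 5.91 TPM in the control. Others were named after their values were seen. drd (drop dead), which encodes a putative acyltransferase, had 6.52 TPM in col + lbe embryos and 16.6 TPM in lbe embryos. fon, a clotting factor gene that also acts at muscle tendons, had 9.73 TPM in col + lbe embryos and 24.4 TPM in lbe embryos. dsf, a nuclear receptor gene of sexual behaviour, had 0.524 TPM in col + lbe embryos and 2.96 TPM in lbe embryos. The other 6, Tb, Sfp79B, gdl-ORF39, EAChm, frm and Muc91C, had differences between -1.33 and -1.07. Of these, Tb lies within the run of Tweedle genes on 3R. The cuticle and Tweedle lists were set by gene symbols and do not hold it.

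The lower genes were chosen by their difference between col + lbe and lbe embryos, so smaller differences in another comparison follow in part from that choice, and the values of col against control embryos are a description. Of the 137 lower genes, 122 were also below 0 between col embryos and the control, where 76.9% of all compared genes are, and 17 reached 2-fold, with a median of -0.43. For 75 the difference made by col was at least 2-fold larger with lbe, against 1.09% of all genes; this measure contains the contrast that chose them, so nothing is read from that share. Adding ap and eya to the control, a further comparison that shares no group with col + lbe and lbe, gave a median of -1.21 for the 137 genes. In it 77 of the 137 were at least 2-fold lower, against 1.18% of all 9833 genes compared there, and 120 were below 0, where 53.6% of all compared genes were. Of the 78 cuticle genes 35 were at least 2-fold lower in ap + eya embryos than in the control, and 1 was in col embryos. The comparisons of col and of ap + eya share the control.

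Most of the lower genes differ between the stages in the control. From St16 to AFT, control embryos had at least 2-fold more of 83 of the 137, against 13.8% of all compared genes, and at least 2-fold less of 33, against 26.6%. The levels come from separate tables with different read layouts, so read layout and stage cannot be told apart. Among the 679 genes at least 4-fold higher at AFT in the control, 74 were lower in col + lbe embryos and 6 were higher. The 639 of them outside the cuticle list had 47 lower and 6 higher. The 256 of those with a name had 4 lower and 4 higher. Among the 2595 genes at least 2-fold lower at AFT in the control, 33 were lower in col + lbe embryos and 8 were higher. Among the 5808 genes within 2-fold between the stages, 21 were lower and 12 higher. In the cuticle list, 28 of the 42 genes that are higher at AFT were lower in col + lbe, with a median of -1.36, as were 7 of the 24 that are lower at AFT, with a median of -0.56. Both medians were negative, and the genes higher at AFT had the lower median. The part that embryo age had in these differences was not tested.

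The same comparison at AFT came from other libraries, read as pairs of 150 bases rather than single reads of 50 bases. There 10008 genes were compared and 2.8% were at least 2-fold higher in col + lbe embryos and 1.12% lower, with a median of 0.21 over the genes also compared at St16. Rescaling by the median ratio removed that shift and turned 280 higher and 112 lower genes into 167 higher and 220 lower, so the balance of directions at AFT depends on the scale.

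Of the Apterous cascade, kn, ap, eya, dimm and Nplp1 stood further apart at AFT than at St16. kn had 104.5 TPM in col + lbe embryos and 5.15 TPM in lbe embryos, a difference of 4.10, against 2.09 at St16, while lbe, near equal at St16, had 88.0 TPM in col + lbe embryos and 48.9 TPM in lbe embryos, a difference of 0.83. Nplp1 had 1339.7 TPM in col + lbe embryos and 70.9 TPM in lbe embryos, a difference of 4.22, which was the largest among the named genes of that stage. For the 22 higher genes that could be compared at AFT, the median was 1.55. Against 1.98% of all genes compared at both stages, 14 of the 22 were at least 2-fold higher again, with the driven gene kn counted in both numbers. They include Six4 with 21.9 TPM in col + lbe embryos and 2.04 TPM in lbe embryos, slou with 37.1 TPM in col + lbe embryos and 5.16 TPM in lbe embryos, and CCHa2 with 41.5 TPM in col + lbe embryos and 13.0 TPM in lbe embryos. ap differed by 2.90, eya by 2.65 and dimm by 1.49. On the same cascade list, cas and hth changed sign, from -0.74 and 0.59 at St16 to 1.26 and -0.76 at AFT. FMRFa had 5.45 TPM in col + lbe embryos and 2.79 TPM in lbe embryos.

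Others of the higher genes did not keep the difference. CG31219 and CG30356 were at least 2-fold lower at AFT, at -1.17 and -1.73. CG3348 and CG15465 were below 0, at -0.61 and -0.45, and y was at 0.09. IM14 was listed at 0 in all 5 genotypes at AFT and could not be compared. The Bomanin genes IM23 and CG15067 were at 3.25 and 3.40, and the antimicrobial peptide gene Drs had 92.4 TPM in col + lbe embryos and 5.21 TPM in lbe embryos at AFT. Of the 119 lower genes compared at AFT, 24 were at least 2-fold lower again, against 1.01% of all genes compared at both stages. Below 0 were 107 of the 119, against 27.3% of all genes compared at both stages, and the median was -0.73. Of 67 cuticle genes compared at AFT 62 were below 0 and 13 were at least 2-fold lower. CG12896 was the only lower gene that was at least 2-fold higher at AFT, with 3.60 TPM in col + lbe embryos and a listed 0 in lbe embryos. In all, 38 genes were at least 2-fold apart in the same direction at both stages, and 65 after median ratio rescaling.

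**Figure D5:**
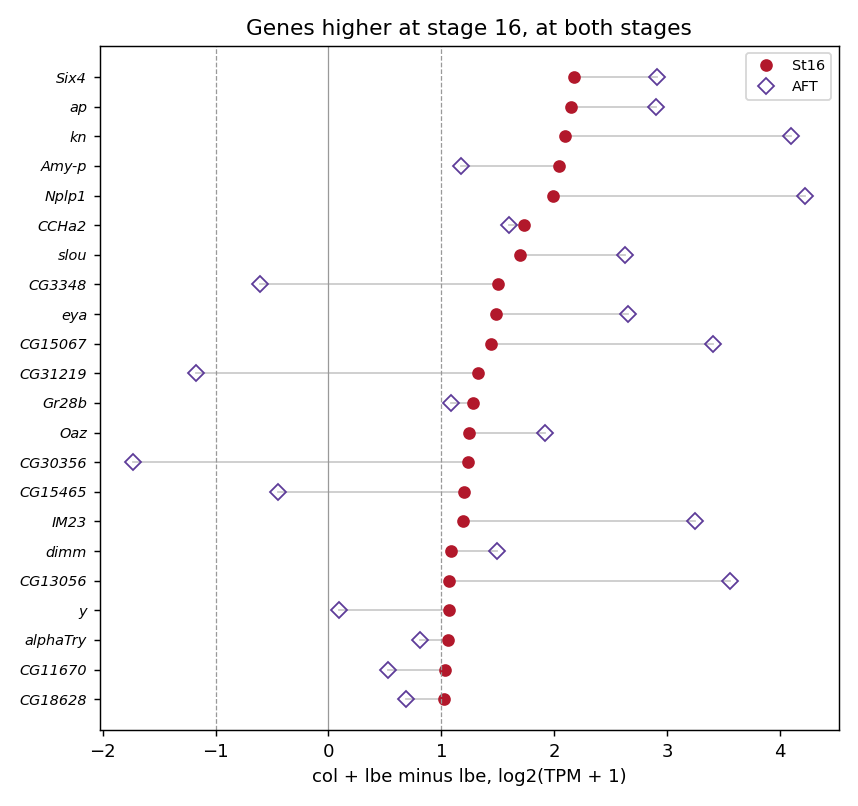
Difference between col + lbe and lbe on the log2(TPM + 1) scale at stage 16 (filled circles) and at AFT (open diamonds) for the 22 higher genes compared at both stages, with dashed lines at 2-fold. kn and Nplp1 reach 4.10 and 4.22 at AFT, while CG31219, CG30356, CG3348 and CG15465 lie below 0 there.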

How the data were processed

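Whole-embryo RNA of 5 genotypes was sequenced at 2 stages, with 3 replicates each and, per the labels' protocols, 30 to 50 M reads in a sample. The authors deposited TPM values, 1 column per genotype and stage per the file headers. The submitters' processing notes name kallisto 0.43.1 and the build BDGP6, and how transcript values became gene values is a step not given in the sources used here. Each column was read as the mean of the 3 replicates, because 56.2% of the 25254 values from 10 to 100 TPM at St16 became whole at the 4th decimal, to within 0.02, when multiplied by 3. Factors of 1, 2, 4 and 5 gave at most 28%. Single libraries were not analysed here, so the planned limma fit could not be made. TPM keeps no depth, and the precision of each value is therefore unknown.

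Differences of log2(TPM + 1) were computed with Python 3.11.15, pandas 2.3.3 and numpy 2.4.6, and the code was checked on simulated data. The pseudocount makes them smaller than the true change where TPM is low. Comparisons took genes at 1 TPM in either group and counted those at 2-fold. The difference made by col with lbe minus that without is (col + lbe minus lbe) minus (col minus control). Named genes are, per direction, the 12 of largest difference among those at 5 TPM or more and not known by a CG or CR number alone, 3 CG-numbered genes, 6 for each other contrast, up to 6 members of a described list, and always the driven genes and a few others. The members and the gene lists were chosen with earlier results of these data known. Spreadsheet dates were turned back into gene symbols in 5 cases. Of the 14040 symbols 13989 were placed on the BDGP6.54 annotation, 1115 of them through older symbols; its coordinates are printed, since the tables hold none. Near-identical copies share reads. Alternatives were other pseudocounts, filters, scalings and thresholds, and subsets of genes.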

Additional observations from a re-analysis of the deposited data

How the results depend on the processing

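The counts of 28 higher and 137 lower genes depend on the pseudocount. There were 75 higher and 186 lower genes with a pseudocount of 0.1, 10 and 69 with a pseudocount of 5, and 81 and 192 by the plain TPM ratio. A threshold of 3-fold gave 8 higher and 49 lower. Without the genes that were 2-fold apart between stages in the control, 12 higher and 21 lower genes were left. Of the alternatives added after the data were seen, col + lbe apart from each of the other 4 genotypes gave 8 higher and 13 lower genes, and leaving out cuticle protein and CG-numbered genes left 19 lower. Other filters, both rescalings, and leaving out kn and lbe or the cuticle, Osiris, gut and heat shock genes kept both counts within 1.5 times, from 19 to 29 higher and 99 to 137 lower. The 149 genes whose difference made by col was 2-fold apart with and without lbe became 284 with a pseudocount of 0.1 and 48 with 5. The 38 genes apart the same way at both stages became 64 with a pseudocount of 0.1, 19 with 5 and 65 after median ratio rescaling. Of the 228 genes that the naming rule gives, none changed direction, and with a pseudocount of 5 there were 16 that no longer reached 2-fold, among them dimm at 0.53, Pdf at -0.92, CCHa1 at -0.81, LysX at 0.78 and Oaz at 0.69. Leaving out each replicate was not run, and no depth can be given, because the table holds 1 mean per group. No paired analysis was possible because the columns carry no replicate number.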
